A study of Bos taurus with 8 samples.

Results

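The 7 genes described here encode components of the Nodal signal, a branch of TGF-beta signalling: the ligands NODAL and GDF3, the co-receptor TDGF1, the receptors ACVR1B and ACVR2B, the secreted inhibitor LEFTY2 and the intracellular inhibitor SMAD7. They were chosen by name, and all 7 were among the 18825 genes measured. Nodal ligands bind a complex of a type II receptor such as ACVR2B and a type I receptor such as ACVR1B, for which they need a co-receptor of the family of TDGF1, also called Cripto. The activated type I receptor phosphorylates SMAD2 and SMAD3, which enter the nucleus with SMAD4 and switch on targets that in the mouse include Nodal itself and the Lefty genes. In the mouse this signal keeps the epiblast pluripotent and later patterns the embryo.

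RNA was measured in 286 single cells of wildtype cattle embryos. The cells came from 6 libraries, replicates 1 to 6, each a pool of 47 or 48 cells that were barcoded singly and mixed before library construction. The authors gave each cell a class: Morula on day 6 after fertilization, EB on day 7, MB ICM and MB TE on day 8, and LB PE, LB TE and LB EPI on day 9. TE is the trophectoderm, ICM the inner cell mass, EPI the epiblast and PE the primitive endoderm, or hypoblast; EB, MB and LB are printed as given. The labels name no strain, embryo or sex for a cell. The sources used here do not give the way in which cells were put into classes. Since the same cells were classed, a difference between classes is not independent of the classing.

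Levels are CPM, reads of a gene scaled to a common total per cell, averaged over the cells of a class in a library that held at least 3 of them, which gave 16 averages. Morula rested on replicates 4 and 6 (13 and 45 cells) and EB on replicate 4 alone (35 cells). MB TE rested on replicates 1, 2 and 3 (21, 12 and 3 cells) and MB ICM on replicates 1, 2 and 5 (24, 21 and 5 cells). LB PE rested on replicates 3 and 5 (14 and 9 cells), LB TE on the same replicates (21 and 9 cells) and LB EPI on replicates 2, 3 and 5 (11, 9 and 24 cells). The median depth per cell was lowest in LB PE, at 39210 reads, and lay between 87902 reads in EB and 198116 in MB TE in the other classes. Marker levels followed the class names in sum: the 5 trophectoderm markers summed to 28204 to 39958 CPM in the LB TE libraries, against 1204 to 2307 in those of LB EPI, and the 5 hypoblast markers to 5258 to 5379 CPM in LB PE, against 503 to 796 in LB EPI. SOX17 of the hypoblast markers was at 0 in LB PE. Of the epiblast markers, SOX2 was at 179 CPM in LB PE of replicate 3 and at 17.0 CPM in LB PE of replicate 5. The library is the replicate throughout, and a p-value here reflects how far libraries spread, which may be technical.

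The co-receptor and GDF3 set the day 9 epiblast apart. TDGF1 averaged 738 CPM and GDF3 152 CPM in LB EPI, with close values in its 3 libraries, and both were lower in every average of every other class. NODAL itself was sparse, with reads in 12 of 45 LB EPI cells. LEFTY2 was read in 1 of 37 MB TE cells, in 19 of 51 MB ICM cells and in 13 of 45 LB EPI cells. SMAD7 had the opposite order on day 8, with 67.0 CPM in MB TE and 7.41 CPM in MB ICM. The receptor ACVR2B was read in most cells of every class and was lower in both trophectoderm classes than in the inner cell mass or epiblast of the same day.

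**Figure D1:**
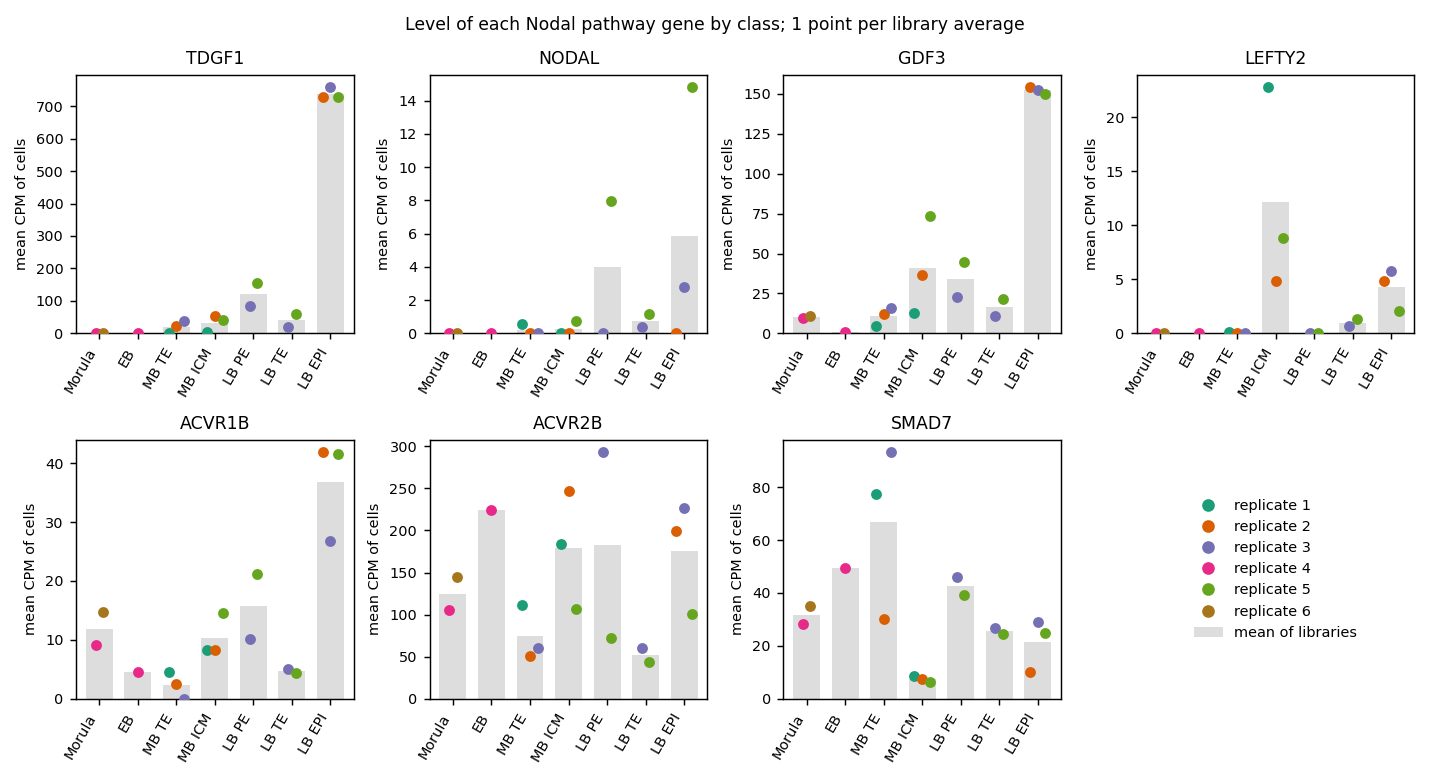
Level of each of the 7 genes by class in mean CPM of cells (linear axes, each from 0). Points are library averages coloured by replicate and grey bars are their means. TDGF1 and GDF3 reach 738 and 152 CPM in LB EPI with little spread, while the NODAL bar rests on replicate 5.

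NODAL, the ligand that names the pathway, was at 0 in Morula and EB. It was at 0.569, 0 and 0 CPM in MB TE of replicates 1, 2 and 3 and at 0, 0 and 0.769 CPM in MB ICM of replicates 1, 2 and 5. On day 9 it was at 0 and 7.94 CPM in LB PE of replicates 3 and 5, at 0.355 and 1.18 CPM in LB TE of the same libraries, and at 0, 2.77 and 14.8 CPM in LB EPI of replicates 2, 3 and 5. The day 9 classes overlap, and the LB EPI level of replicate 5 rests largely on 1 cell. That cell had 269 CPM at a depth of 18566 reads, against a class median of 196981, and made up 75.6% of the class sum in its library. Without it the average was 3.77 CPM, an average chosen after its values were seen, as are all those given here without a top cell. Reads of NODAL were found in 1 of 37 MB TE cells, 1 of 51 MB ICM cells, 3 of 25 LB PE cells, 3 of 31 LB TE cells and 12 of 45 LB EPI cells (26.7%, exact 95% interval 14.6 to 41.9). Depth differs between these classes. Thinned to 20000 reads per cell, the expected shares were 6.94% in LB PE, 1.15% in LB TE and 4.86% in LB EPI. Cells below that depth were left out, the cell of 269 CPM among them. No Morula or EB cell had a read, which allows a share of up to 5.17% of 58 Morula cells and 7.69% of 39 EB cells. Pooled over cells, NODAL had 30 reads in LB EPI and 1 read in MB ICM, a depth-scaled ratio of 22.6 with a counting interval of 3.75 to 921. Intervals and limits of this kind cover counting error only. Of the 30 reads 27 came from replicate 5, as did the MB ICM read. In replicate 2, which also held both classes, NODAL had 0 reads in each, so the pooled ratio rests on replicate 5.

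GDF3, a ligand that acts with NODAL or through the same receptors, was at 9.59 and 11 CPM in Morula of replicates 4 and 6 and at 0.956 CPM in EB. Day 8 cells had it at 4.67, 12.4 and 16.0 CPM in MB TE of replicates 1, 2 and 3 and at 13.0, 36.8 and 73.6 CPM in MB ICM of replicates 1, 2 and 5. The 2 classes overlap, and 1 MB ICM cell of replicate 5 had 275 CPM, without which that average was 23.3 CPM. On day 9 GDF3 was at 23.1 and 44.8 CPM in LB PE of replicates 3 and 5, at 10.95 and 21.6 CPM in LB TE and at 154, 152 and 150 CPM in LB EPI of replicates 2, 3 and 5. The lowest LB EPI average was above the highest of any other class. GDF3 reads were found before the blastocyst, in 20 of 58 Morula cells, and in 2 of 39 EB cells.

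TDGF1, the co-receptor, was at 0.765 and 0.200 CPM in Morula and 0.0987 CPM in EB, resting on 5 reads in 2 cells and 1 read in 1 cell. Day 8 cells had it at 0.683, 22.0 and 37.6 CPM in MB TE of replicates 1, 2 and 3 and at 4.01, 54.3 and 41.7 CPM in MB ICM of replicates 1, 2 and 5. In both classes replicate 1 was the lowest. On day 9 TDGF1 was at 85.4 and 154 CPM in LB PE of replicates 3 and 5, at 20.5 and 60.4 CPM in LB TE and at 727, 759 and 729 CPM in LB EPI of replicates 2, 3 and 5. No average outside LB EPI exceeded 154 CPM. Single cells weighed on some of these: LB PE of replicate 5 was at 94.1 CPM without a top cell that made up 45.8% of its sum, and MB ICM of replicate 1 at 1.39 CPM without its own. The LB PE top cell was shallow, with 6295 reads. All 25 LB PE cells and 29 of 31 LB TE cells had TDGF1 reads, at medians over cells of 62.5 and 22.4 CPM. Every LB EPI cell had reads too, with a median of 695 CPM and quartiles of 574 and 886 CPM. With every cell thinned to 20000 reads, which leaves out 5 LB PE and 2 LB EPI cells, the expected shares of cells with a read were 73.3% in LB PE, 43.2% in LB TE and 99.99% in LB EPI.

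**Figure D2:**
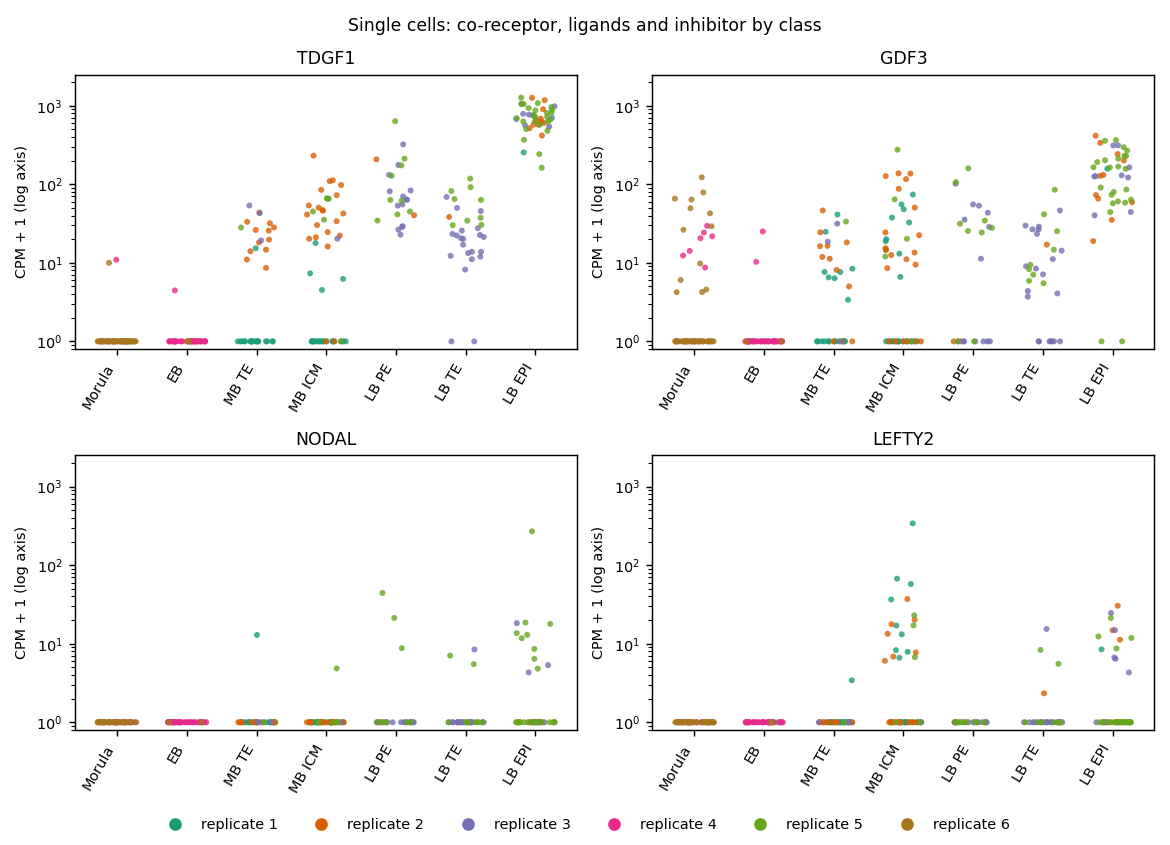
CPM plus 1 of TDGF1, GDF3, NODAL and LEFTY2 in single cells by class, on log axes, with points spread sideways and coloured by replicate; cells at the bottom had no read. LB EPI cells form a band around 695 CPM of TDGF1, and in MB TE the cells with TDGF1 reads come mainly from replicates 2 and 3.

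ACVR1B, the type I receptor known as ALK4, averaged 11.9 ± 4.02 CPM in Morula (SD, n = 2) and 4.60 CPM in EB. On day 8 it was at 4.52, 2.49 and 0 CPM in MB TE of replicates 1, 2 and 3 and at 8.24, 8.29 and 14.5 CPM in MB ICM of replicates 1, 2 and 5. On day 9 it was at 10.2 and 21.1 CPM in LB PE of replicates 3 and 5, at 5.04 and 4.40 CPM in LB TE and at 41.9, 26.8 and 41.6 CPM in LB EPI of replicates 2, 3 and 5. The LB EPI averages were the 3 highest of all 16. The next, LB PE of replicate 5, was 2.09 CPM without its top cell.

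ACVR2B, a type II receptor shared by Nodal, activins and several BMPs, had another pattern, with no peak in the epiblast. It averaged 125 ± 27.6 CPM in Morula (SD, n = 2) and 224 CPM in EB. On day 8 it was at 112, 50.3 and 60.5 CPM in MB TE of replicates 1, 2 and 3 and at 184, 247 and 107 CPM in MB ICM of replicates 1, 2 and 5. The ranges overlap, since the highest MB TE average exceeds the lowest of MB ICM. On day 9 it was at 293 and 72.1 CPM in LB PE of replicates 3 and 5, at 60.04 and 43.1 CPM in LB TE and at 200, 227 and 101 CPM in LB EPI of replicates 2, 3 and 5. All LB TE averages were below all of LB EPI, and in each day 9 class the replicate 5 average was the lowest. Between 84% (LB PE) and 100% (EB) of cells of a class had ACVR2B reads. LB PE cells were also the shallowest. Thinned to 20000 reads per cell, with cells below that left out, the expected shares ran from 58.4% in LB TE and 68.6% in MB TE to 90.1% in LB PE and 92.8% in EB.

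LEFTY2, a secreted antagonist that in the mouse is itself a Nodal target, was at 0 in Morula and EB. On day 8 it was at 0.115, 0 and 0 CPM in MB TE of replicates 1, 2 and 3 and at 22.8, 4.86 and 8.79 CPM in MB ICM of replicates 1, 2 and 5, with no overlap. On day 9 LEFTY2 was at 0 in LB PE, at 0.687 and 1.32 CPM in LB TE of replicates 3 and 5 and at 4.87, 5.78 and 2.09 CPM in LB EPI of replicates 2, 3 and 5. An MB ICM cell of replicate 1 had 340 CPM, 62.2% of that sum, at a depth of 8812 reads against a class median of 132481. Without it the average was 8.99 CPM. On day 9 reads were found in 4 of 31 LB TE cells and 13 of 45 LB EPI cells. The 25 LB PE cells had none, which allows a share of up to 12%. Pooled reads of LEFTY2 were at least 7.23-fold lower in LB PE than in MB ICM and at least 2.50-fold lower than in LB EPI, taking 3 reads over the LB PE cells as the limit. MB ICM was at least 37.3-fold higher than Morula and at least 15.0-fold higher than EB, by the same limit over their cells. Of the 76 MB ICM reads 54 came from replicate 1 and 18 from replicate 2. Replicate 5, the 1 library with averages of both MB ICM and LB PE, had 4 reads in MB ICM and 0 in LB PE. Morula cells and most EB cells came from replicates 4 and 6, which held no MB ICM cell, so libraries differ there as well as classes. These folds leave out the counting error of the class with reads: the counting intervals of the ratios end at 0.174 for LB PE over MB ICM and 0.518 for LB PE over LB EPI, and start at 29.6 for MB ICM over Morula and 11.9 for MB ICM over EB.

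SMAD7, which blocks the activated receptor from inside the cell and is induced by TGF-beta and BMP signals, averaged 31.5 ± 4.83 CPM in Morula (SD, n = 2) and 49.4 CPM in EB. Day 8 cells had it at 77.4, 30.3 and 93.3 CPM in MB TE of replicates 1, 2 and 3 and at 8.59, 7.49 and 6.16 CPM in MB ICM of replicates 1, 2 and 5. Every MB TE average exceeded every MB ICM average, and those of MB ICM were the 3 lowest of all 16. On day 9 SMAD7 was at 45.9 and 39.4 CPM in LB PE of replicates 3 and 5, at 26.9 and 24.3 CPM in LB TE and at 10.1, 28.9 and 24.8 CPM in LB EPI of replicates 2, 3 and 5. The LB PE value of replicate 5 was 4.75 CPM without its top cell of 317 CPM, a shallow cell of 9474 reads.

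Changes were tested on log2(CPM + 10) with limma over 12540 genes, all 7 of these included, with p-values adjusted over all genes and a threshold of 0.05. Adding 10 CPM understates the change of a low gene. NODAL passed the filter on low values (10 CPM) only through LB EPI of replicate 5, and LEFTY2 only through MB ICM of replicate 1. With the classes ordered by level, 1 of 6 steps between neighbours passed the test for TDGF1, LB EPI above LB PE. For GDF3 it was LB EPI above MB ICM. No neighbouring classes differed beyond their spread for NODAL, LEFTY2, ACVR1B, ACVR2B or SMAD7, and NODAL passed in none of the 21 pairs of classes.

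Day 9 trophectoderm had less of the ligand GDF3, the co-receptor and both receptors than day 9 epiblast. TDGF1 averaged 40.5 ± 28.2 CPM in LB TE (SD, n = 2) and 738 ± 18.2 CPM in LB EPI (SD, n = 3), a log2 change of -4.00 (95% interval -5.14 to -2.86, limma adjusted p = 5.54e-05). GDF3 averaged 16.3 ± 7.50 and 152 ± 2.17 CPM, a change of -2.68 (-3.52 to -1.84, adjusted p = 9.27e-05). ACVR1B, at 4.72 ± 0.451 and 36.8 ± 8.60 CPM, fell by 1.64 (SE 0.32, limma adjusted p = 0.00118), and ACVR2B, at 51.6 ± 12.0 and 176 ± 66.3 CPM, fell by 1.49 (SE 0.42, adjusted p = 0.019). The 4 falls stand against 15.2% of all tested genes called in either direction. Each of the 4 was lower in LB TE in both libraries that held both classes. NODAL (log2 change -0.49, interval -1.11 to 0.12), LEFTY2 (-0.38, -0.97 to 0.21) and SMAD7 (0.15, -0.61 to 0.92) did not pass. ACVR2B no longer passed without replicate 2 (adjusted p = 0.0635) or 3 (0.148), or with no filter on low values (0.0613).

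In primitive endoderm TDGF1 and GDF3 were again lower than in epiblast, while the receptors did not pass the test. TDGF1 averaged 120 ± 48.7 CPM in LB PE (SD, n = 2) and 738 ± 18.2 CPM in LB EPI, and fell by 2.57 (95% interval of the log2 change -3.71 to -1.43, limma adjusted p = 0.00894). GDF3 averaged 33.9 ± 15.4 and 152 ± 2.17 CPM and fell by 1.95 (interval -2.80 to -1.11, adjusted p = 0.00638). These were 2 of 7 genes, where 5.39% of all tested genes were called. ACVR1B had a change of -0.87 (adjusted p = 0.126), ACVR2B of -0.12 (interval -0.997 to 0.76), SMAD7 of 0.72 (-0.05 to 1.48), NODAL of -0.18 and LEFTY2 of -0.51. Both calls were lost without replicate 3, at adjusted p = 0.109 for TDGF1 and 0.12 for GDF3, and TDGF1 was also lost without replicate 5 (0.051). Over the 25 LB PE cells, TDGF1 on the log2(CPM + 10) scale and log reads per cell had Pearson's r of -0.55, a description of cells from shared libraries.

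Set against each other, LB PE and LB TE differed in 0 of the 7 genes by limma, where 5.85% of all tested genes were called. At an unadjusted p under 0.05 by limma there were 3, against 2459 of all 12540 tested genes. By limma-voom on summed reads 1 was called, ACVR2B. ACVR2B averaged 183 ± 156 CPM in LB PE and 51.6 ± 12.0 CPM in LB TE (log2 change 1.37, interval 0.42 to 2.32, adjusted p = 0.0847). TDGF1 had a change of 1.43 (0.20 to 2.66, adjusted p = 0.175) and was higher in LB PE in both libraries. Without replicate 1, which holds neither class, the TDGF1 change was 1.43 with adjusted p = 0.0406, and without replicate 5 that of ACVR2B was 2.11 with adjusted p = 0.0421.

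The co-receptor, GDF3 and the type I receptor were higher in day 9 epiblast than in day 8 inner cell mass. TDGF1 averaged 738 ± 18.2 CPM in LB EPI and 33.3 ± 26.2 CPM in MB ICM (SD, n = 3 each), a log2 change of 4.23 (95% interval 3.20 to 5.26, limma adjusted p = 6.66e-05). GDF3 averaged 152 ± 2.17 CPM in LB EPI and 41.2 ± 30.6 CPM in MB ICM, a change of 1.78 (SE 0.37, adjusted p = 0.00499). ACVR1B averaged 36.8 ± 8.60 CPM in LB EPI and 10.4 ± 3.61 CPM in MB ICM, a change of 1.24 (SE 0.29, adjusted p = 0.0133). The 3 rises compare with 5.1% of all tested genes called. Within replicates 2 and 5, which held both classes, the TDGF1 difference was 3.52 and 3.84 on the log2 scale. ACVR2B did not pass the test, with a change of -0.04 (-0.83 to 0.76). SMAD7 had 0.76 (0.07 to 1.46, adjusted p = 0.23), NODAL 0.55 (-0.01 to 1.10) and LEFTY2 -0.53 (-1.06 to 0.00, adjusted p = 0.295). Without replicate 2 the calls of GDF3 (adjusted p = 0.0679) and ACVR1B (0.159) were lost, and ACVR1B was also lost without replicate 1 (0.0679) or with 1 CPM added in place of 10 (0.1).

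**Figure D3:**
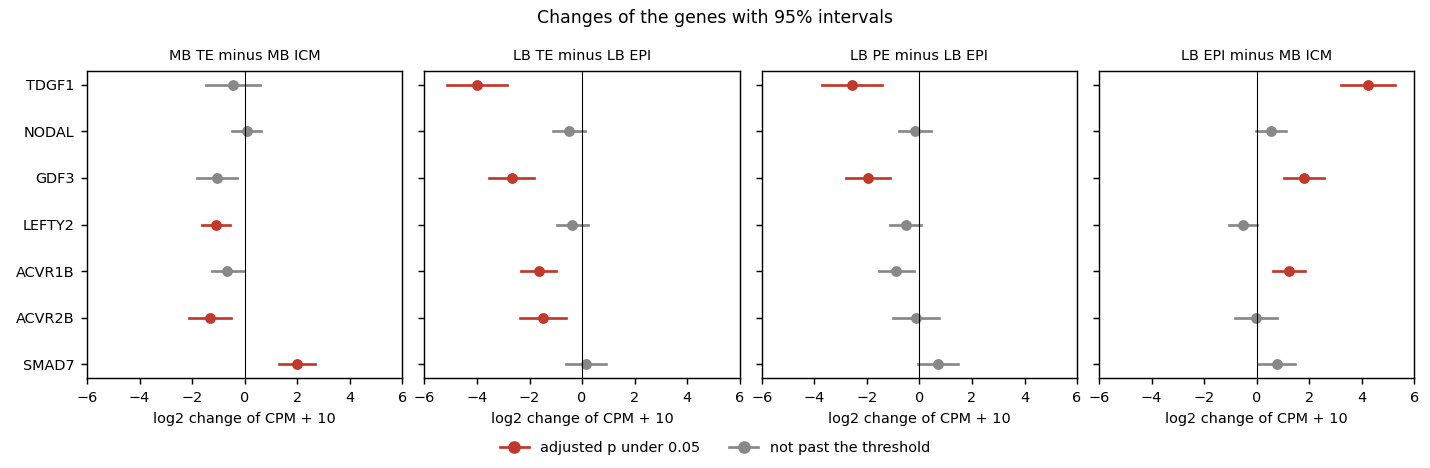
Log2 change of CPM + 10 of the 7 genes with 95% intervals from limma in 4 comparisons, each named as first class minus second; red marks an adjusted p under 0.05. TDGF1 runs from -4.00 (LB TE minus LB EPI) to 4.23 (LB EPI minus MB ICM), and SMAD7 is the gene that is higher in MB TE.

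On day 8 SMAD7 was higher, and LEFTY2 and ACVR2B lower, in trophectoderm than in inner cell mass. SMAD7 averaged 67.0 ± 32.7 CPM in MB TE and 7.41 ± 1.22 CPM in MB ICM (SD, n = 3 each), a log2 change of 1.99 (95% interval 1.30 to 2.68, limma adjusted p = 0.000372). LEFTY2 averaged 0.0385 ± 0.0666 CPM in MB TE, from 1 read, and 12.1 ± 9.43 CPM in MB ICM, a fitted change of -1.08 (SE 0.26, adjusted p = 0.00796). Its pooled reads gave a depth-scaled ratio of 0.00978 with a counting interval of 0.000244 to 0.0562. Since LEFTY2 entered the test only through MB ICM of replicate 1, the class where it was high, and that average is under the filter without its top cell (8.99 CPM), its call is given as a description. ACVR2B averaged 74.2 ± 33.0 CPM in MB TE and 179 ± 70.1 CPM in MB ICM, a change of -1.32 (SE 0.38, adjusted p = 0.0305). The called genes were 1 higher and 2 lower, LEFTY2 included, where 10.1% of all tested genes were called. GDF3 (-1.06, interval -1.81 to -0.30, adjusted p = 0.0712), ACVR1B (-0.66, adjusted p = 0.168) and TDGF1 (-0.44, -1.47 to 0.58) did not pass, and limma-voom called 5 genes, adding GDF3 and ACVR1B. ACVR2B no longer passed without replicate 2 (adjusted p = 0.333) or 3 (0.0884), nor LEFTY2 without replicate 3 (0.0545).

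The difference of trophectoderm from epiblast or inner cell mass was compared between days, LB TE minus LB EPI against MB TE minus MB ICM. Day 9 enters with the epiblast alone, without LB PE, and day 8 with the whole inner cell mass. TDGF1 differed by -3.56 (95% interval -5.09 to -2.03, limma adjusted p = 0.0385), the 1 of 7 genes that passed, where 0.367% of all tested genes did. SMAD7 had -1.84 (-2.87 to -0.81, adjusted p = 0.121) and GDF3 -1.63 (-2.76 to -0.49, adjusted p = 0.246). The TDGF1 call was lost when replicate 2 (adjusted p = 0.0997), 3 (0.613), 4 (0.0542) or 5 (0.0982) was left out.

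Neither the trophectoderm across days nor primitive endoderm against day 8 inner cell mass gave a call. Between LB TE and MB TE 0 of 7 genes passed by limma (0.191% of all tested genes called) and 0 by limma-voom. At an unadjusted p under 0.05 by limma there was 1, against 701 of all 12540 tested genes. The 1 gene was SMAD7, at 25.6 ± 1.83 CPM in LB TE (SD, n = 2) and 67.0 ± 32.7 CPM in MB TE (log2 change -1.08, interval -1.87 to -0.29, adjusted p = 0.519). Between LB PE and MB ICM 0 passed by limma (0.702% of all tested genes called) and 0 by limma-voom. At an unadjusted p under 0.05 by limma there were 3, against 1575 of all 12540 tested genes. The 3 were SMAD7 (log2 change 1.48, adjusted p = 0.0821), TDGF1 (1.66, adjusted p = 0.21) and LEFTY2 (-1.05, adjusted p = 0.11), the last with no read in LB PE. The LEFTY2 value is a description, since the gene entered the test only through MB ICM, where it was high.

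The comparisons with EB rest on 1 EB library, assumed to vary like the other classes, and that library gave no average of a day 8 class. Between EB and Morula 0 of 7 genes passed by limma or limma-voom, also at an unadjusted p under 0.05 (limma), where 0.0797% of all tested genes were called. GDF3 was at 0.956 CPM in EB and 9.59 CPM in Morula of the same library, replicate 4. Between MB ICM and EB 0 passed by either tool (0.175% of all tested genes called by limma). In MB ICM TDGF1 (log2 change 1.85), GDF3 (2.02) and LEFTY2 (1.07) were higher and SMAD7 lower. LEFTY2 entered the test only through MB ICM, so its value is a description. SMAD7 was at 7.41 ± 1.22 CPM in MB ICM and 49.4 CPM in EB (log2 change -1.75, interval -2.80 to -0.70, adjusted p = 0.277). Between MB TE and EB 0 passed by either tool (0.997% of all tested genes called by limma). ACVR2B was at 74.2 ± 33.0 CPM in MB TE and 224 CPM in EB, a log2 change of -1.69. In the averages of these last comparisons, the day cannot be told apart from the library.

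The low TDGF1 and GDF3 levels outside the epiblast differed between libraries. LB EPI cells supplied 1.58% of the reads of replicate 1 (1 cell), 24.97% in replicate 2 (11 cells), 22.3% in replicate 3 (9 cells), 55.6% in replicate 5 (24 cells) and none in replicates 4 and 6. In replicate 1, TDGF1 was read in 1 of 21 MB TE cells and 5 of 24 MB ICM cells. In replicate 2 it was read in 12 of 12 MB TE cells and 19 of 21 MB ICM cells. As a share of the LB EPI level of the same library, TDGF1 stood at 3.02% in MB TE and 7.47% in MB ICM of replicate 2. In replicate 3 it stood at 4.96% in MB TE, 2.70% in LB TE and 11.2% in LB PE. In replicate 5 it stood at 5.72% in MB ICM, lower than in replicate 2, at 8.29% in LB TE and at 21.2% in LB PE. GDF3 stood at 8.05% in MB TE and 23.9% in MB ICM of replicate 2. It stood at 10.5% in MB TE, 7.19% in LB TE and 15.1% in LB PE of replicate 3. In replicate 5 GDF3 was at 49.1% in MB ICM, 14.4% in LB TE and 29.8% in LB PE. Epiblast markers did not all follow the same order. NANOG stood at 2.42% of LB EPI in LB TE of replicate 3 and 6.85% in LB TE of replicate 5, but at 18.3% and 10.6% in LB PE of the same libraries. SOX2 stood at 3.22% and 2.76% in LB TE and at 82.6% and 10.3% in LB PE of replicates 3 and 5. In MB ICM, NANOG was at 129.46 CPM in replicate 1 and 129.50 CPM in replicate 2. TDGF1 in LB PE and GDF3 in MB ICM of replicate 5 rest in part on the top cells named above. Cells of a library were mixed after barcoding, and the part of this mixing in the low values was not tested. A share of cells with TDGF1 reads in LB TE, MB TE, MB ICM or LB PE is therefore not read here as the share of cells that express it.

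**Figure D4:**
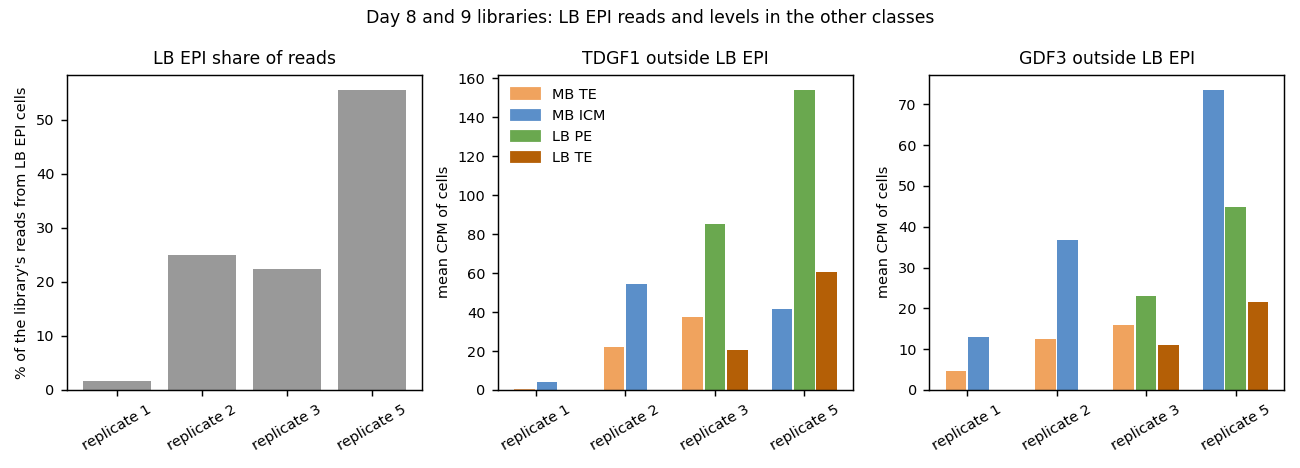
Share of each library's reads that came from LB EPI cells (left), and mean CPM of TDGF1 (middle) and GDF3 (right) in the other day 8 and day 9 classes of the same libraries; linear axes from 0. Replicate 1, with 1.58% of reads from LB EPI, has the lowest TDGF1 bars, 0.683 CPM in MB TE and 4.01 CPM in MB ICM.

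All 12 LB EPI cells with NODAL reads had TDGF1 reads, as did all 45 LB EPI cells, and 11 of the 12 had GDF3 reads, as did 43 of 45. NODAL and LEFTY2 were read together in 2 LB EPI cells, NODAL alone of the pair in 10 and LEFTY2 alone in 11. No MB ICM cell had both: 1 of 51 had NODAL reads, and that cell had no LEFTY2 read. Of the 19 MB ICM cells with LEFTY2 reads, 18 had reads of NANOG and 16 of SOX2, both epiblast factors, and 19 had reads of PDGFRA and 18 of GATA6, both hypoblast factors. In MB ICM as a whole 44, 42, 43 and 46 of 51 cells had reads of NANOG, SOX2, PDGFRA and GATA6.

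Over the 16 averages, which share libraries, TDGF1 and GDF3 had a Pearson correlation of 0.93, GDF3 and ACVR1B of 0.84, and LEFTY2 and SMAD7 of -0.73. The tested genes most like TDGF1 were UPP1 (0.98), COX7A1 (0.95) and DPYS (0.93), and those most like GDF3 were FAM162A (0.95), MS4A8 (0.94) and UPP1 (0.94). ACVR1B was most like CDKL1 (0.91), CNRIP1 (0.91) and SPC25 (0.90). ACVR2B was most like MLEC (0.91), GSE1 (0.91) and ARHGAP33 (0.87). SMAD7 was most like RNGTT (0.87), NCOA2 (0.86) and FMNL3 (0.84). LEFTY2 was most like R3HDML, BOLA-DRB3 and IGFBP2 (0.84 each). NODAL was most like CHRNB3 (0.97), LOC107133280 (0.95) and CNGB1 (0.93), values that rest on the LB EPI average of replicate 5.

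Of 45 other genes of the pathway 38 were in the table and 32 were tested. On day 8, 2 were higher and 4 lower in MB TE, where 10.1% of all tested genes were called, with a median log2 change of -0.02 over the 32 genes and -0.04 over all genes. FURIN, a protease that matures TGF-beta family ligands, was at 99.3 ± 41.3 CPM in MB TE and 13.3 ± 10.2 CPM in MB ICM (log2 change 2.08, limma adjusted p = 0.00318). TGFBR3, a co-receptor of TGF-beta ligands, rose by 1.51, and GSC, a homeobox target of Nodal in other vertebrates, was at 2.62 ± 4.55 CPM in MB TE and 30.5 ± 20.0 CPM in MB ICM (change -1.66). TGIF2 (-1.05) and SMAD6 (-1.06), which restrain SMAD signals, were lower too. FURIN passed with each library left out, while the other named calls were lost: GSC (adjusted p = 0.111) and TGFBR3 (0.0547) without replicate 2, and TGIF2 (0.127) and SMAD6 (0.147) without replicate 1 among others.

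On day 9, 2 of the 32 were higher and 3 lower in LB TE than in LB EPI, a share near the 15.2% of all tested genes called, with a median of -0.32, against -0.04 over all genes. FURIN rose again by 2.15 (154 ± 32.5 CPM in LB TE and 27.4 ± 4.25 CPM in LB EPI) and TGFBR3 by 1.80. SKIL, a corepressor of SMADs, was at 55.7 ± 37.9 CPM in LB PE, 20.1 ± 4.71 CPM in LB TE and 171 ± 49.9 CPM in LB EPI. It fell by 2.61 in LB TE and by 1.61 in LB PE relative to LB EPI, the second call lost without replicate 5 (limma adjusted p = 0.219). TGIF2 fell by 2.33 in LB TE, and SMAD4, the shared partner of the receptor SMADs, by 0.99 in LB TE and 1.33 in LB PE. Of 14 alternatives, the SMAD4 call was lost under 7 in LB TE and under 4 in LB PE. Without replicate 5 the SMAD4 changes were -0.86 and -1.08. LB PE had 0 higher and 2 lower against LB EPI, a share near the 5.39% of all tested genes called. Against LB TE it had 2 higher and 1 lower, where 5.85% of all tested genes were called: ZFYVE9, which brings SMADs to the receptor (log2 change 1.80), TGIF2 (1.35) and FURIN (-2.39). These 3 calls were lost without replicate 5. Over all 14 alternatives ZFYVE9 was lost under 3, TGIF2 under 6 and FURIN under 1.

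Between LB EPI and MB ICM 3 of the 32 were higher and 1 lower in LB EPI, where 5.1% of all tested genes were called, with a median of 0.12, against 0.02 over all genes. SKIL was at 171 ± 49.9 CPM in LB EPI and 45.4 ± 6.83 CPM in MB ICM (log2 change 1.65, limma adjusted p = 0.00468). SMAD4 rose by 1.05 and TGIF2 by 1.06, and GSC fell by 1.49 with 2.57 ± 2.57 CPM in LB EPI. These last 3 calls were lost without replicate 2, at limma adjusted p = 0.18, 0.129 and 0.129. Over all 14 alternatives SMAD4 was lost under 9, TGIF2 under 12 and GSC under 6. None of the 32 passed in the other comparisons by limma.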

How the data were processed

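The values are single-cell RNA levels of 6 wildtype libraries. Per the submitters' processing notes, reads went through Trim Galore, HISAT2, featureCounts and Seurat (build ARS-UCD1.2), in no stated order or setting, and the sources used here do not state whether molecular identifiers were counted. As deposited by the authors, the measurements are natural log values of 1 plus a level scaled to 10000 per cell, over 18825 genes and 286 cells; 2 further cells of the cell table have no values, and 2 more libraries of the labels were not used. Undoing the log gave whole multiples of 1 read for 100% of values (tolerance 0.1), 48628984 reads in all and a median of 150770.5 per cell (2633 to 747345). The libraries use the same 48 barcodes, so barcodes do not tell their cells apart.

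CPM values were averaged per library and class (at least 3 cells), transformed as log2(CPM + 10) and fitted with limma 3.58.1 in R 4.3.3 (trend, robust), with statmod 1.5.0 for the library as a random block. The block was used because a library gave several classes and their averages deviated together (consensus correlation 0.18). Genes had to reach 10 CPM in at least 1 average, which left 12540, with Benjamini-Hochberg adjustment over all of them. On the recovered reads, summed per average, limma-voom called 1675 genes for MB TE minus MB ICM, against 1264. The fitting code was tested on simulated data. The members and gene lists were chosen with earlier results of these data known. All 7 genes are named in every class; other pathway genes are named where called, except for a result that is not reported here, and the 3 genes most alike over the averages are named for each. A gene table of another assembly served for names only.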

Additional observations from a re-analysis of the deposited data

Results flagged for a closer look

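TDGF1 drew attention because LB TE differed more from LB EPI on day 9 than MB TE did from MB ICM on day 8. The change in the difference was itself tested. Day 9 enters with the epiblast alone and day 8 with the whole inner cell mass. LB PE, with TDGF1 at 120 CPM against 738 CPM in LB EPI, is left out. The day 9 difference (LB TE minus LB EPI) less the day 8 difference (MB TE minus MB ICM) was -3.56 on the log2(CPM + 10) scale (SE 0.73, limma adjusted p = 0.0385). LB TE was below LB EPI in both libraries that held both classes, and MB TE was below MB ICM in both libraries that held those. The result no longer passed under 10 of 14 alternatives, with adjusted p between 0.00399 and 0.613 and values between -4.25 and -2.43. Beside it stand the TDGF1 levels of replicate 1, 0.683 CPM in MB TE and 4.01 CPM in MB ICM, in the library with 1 LB EPI cell; the part of library composition in the result was not tested.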

How the results depend on the processing

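Of 77 tested changes of the 7 genes 13 passed, 5 of them under every alternative that was run: TDGF1, GDF3 and ACVR1B for LB TE minus LB EPI, TDGF1 for LB EPI minus MB ICM, and SMAD7 for MB TE minus MB ICM. The other 8 were lost under at least 1 alternative. None of the 13 changed sign, and 7 of the 64 others passed under at least 1 alternative. Among the 8 is LEFTY2 for MB TE minus MB ICM, a call given as a description because the gene entered the test only through MB ICM. Over all tested genes the share called ran from 0.0797% (EB minus Morula) to 15.2% (LB TE minus LB EPI) by comparison. How many of those calls held under every alternative was not counted. The 77 changes share classes and libraries, so the 13 calls are not independent of each other. For MB TE minus MB ICM the count of 3 genes was 5 with limma-voom and 1 to 3 with a library left out, and ACVR2B was lost with no filter on low values, at least 5 cells or averaging of log2 values over cells. For LB PE minus LB EPI the count of 2 was 1 with a pseudocount of 1 (TDGF1 adjusted p = 0.136) and 0 to 2 with a library left out. For LB PE minus LB TE the count of 0 was 1 with limma-voom and 0 to 1 with a library left out. For LB EPI minus MB ICM the count of 3 was 1 to 3 with a library left out, and ACVR1B was lost with a pseudocount of 1. For LB TE minus LB EPI, ACVR2B was lost with no filter. For LB PE minus MB ICM the count was 1 in place of 0 when log2 values were averaged over cells (LEFTY2, with the same limit of its entry through MB ICM). For the change between days the count of 1 was 0 with a pseudocount of 1, no filter, at least 5 cells, no replicate block, median-of-ratios scaling or limma-voom, 2 with averaged log2 values, and 0 to 1 with a library left out. With no replicate block the TDGF1 value there was -3.51 (adjusted p = 0.119), and the ACVR2B call of MB TE minus MB ICM was lost (0.118), and no other call on these genes changed. Signs turned only for changes that did not pass, 17 in all: SMAD7 for LB TE minus LB EPI ranged from -0.047 to 0.27 with a library left out. ACVR2B for LB PE minus LB EPI was 0.22 with limma-voom and ranged from -0.74 to 0.43 with a library left out, and SMAD7 there was -0.017 with limma-voom. For ACVR2B the change between days was 0.12 with a fixed replicate block and 0.16 with limma-voom and ranged from -0.49 to 0.17 with a library left out. For LB EPI minus MB ICM, ACVR2B was 0.0457 with a fixed replicate block and 0.33 with averaged log2 values, and ranged from -0.17 to 0.0943 with a library left out. For LB PE minus MB ICM, ACVR2B was 0.0248 with a fixed replicate block and 0.0774 with averaged log2 values (-0.91 to 0.48 with a library left out), GDF3 was 0.094 with limma-voom (-0.56 to 0.0925) and ACVR1B -0.0376 with averaged log2 values. For LB TE minus MB TE, NODAL was 0.21 with a pseudocount of 1, 0.0033 with no filter, 0.0787 with no replicate block and 0.0159 with averaged log2 values. In that comparison GDF3 was -0.27 and ACVR2B 0.16 with a fixed replicate block (-0.0549 to 0.50 and -0.40 to 0.0974 with a library left out). SMAD7 for LB PE minus LB TE was -0.047 with averaged log2 values and -0.29 with limma-voom. NODAL for MB TE minus MB ICM was -0.009 with no replicate block, and with a library left out NODAL ranged from -0.41 to 0.0504 for LB PE minus LB EPI and from -0.0104 to 0.0356 for MB ICM minus EB. For MB TE minus EB, LEFTY2 was 0.0221 with a pseudocount of 1, 0.0055 with no replicate block, 0.0045 with averaged log2 values and 1.32 with limma-voom (-0.0317 to 0.0055 with a library left out), and SMAD7 was -0.0192 with limma-voom (-0.0087 to 0.63). The cause of these shifts was not tested. A fixed replicate block gives no value for MB ICM or MB TE minus EB, without replicate 4 no EB is left, and without replicate 1 LEFTY2 is under the filter. Without replicate 3 or 5 LB PE and LB TE have 1 library each, assumed to vary like the other classes. Depth limits LB PE most, at a median of 39210 reads. Over all genes tested the called genes numbered 1264 (635 to 1675 over the alternatives) for MB TE minus MB ICM, 1902 (851 to 3165) for LB TE minus LB EPI, 676 (260 to 994) for LB PE minus LB EPI, 734 (169 to 1246) for LB PE minus LB TE, 640 (315 to 1105) for LB EPI minus MB ICM, 88 (0 to 269) for LB PE minus MB ICM, 24 (3 to 86) for LB TE minus MB TE, 10 (1 to 83) for EB minus Morula, 22 (5 to 85) for MB ICM minus EB, 125 (28 to 366) for MB TE minus EB and 46 (0 to 155) between days.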

Other observations

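SMAD2 and SMAD3, which carry the Nodal signal into the nucleus, and their partner FOXH1 passed the limma test in none of the comparisons above. They were picked for mention after their values were seen. Those comparisons set Morula against EB only, so they do not cover Morula against day 8 or day 9. SMAD3 averaged 13.8 ± 3.88 CPM in Morula (SD, n = 2) and 5.93 CPM in EB. On day 8 it averaged 2.43 ± 2.11 CPM in MB TE and 1.23 ± 1.38 CPM in MB ICM (SD, n = 3 each), and no day 9 library average of SMAD3 exceeded 1.42 CPM, that of an LB TE library. The Morula and EB averages come from libraries that gave no average of a later class, so the day and the library of these levels cannot be told apart. SMAD2 averaged 40.8 ± 9.97 CPM in MB TE and 79.2 ± 19.7 CPM in MB ICM (SD, n = 3 each), a log2 change of -0.87 (SE 0.30, limma adjusted p = 0.074). On day 9 it averaged 50.4 ± 20.8 CPM in LB TE (SD, n = 2) and 103 ± 25.2 CPM in LB EPI (SD, n = 3), a change of -0.98 (SE 0.34, limma adjusted p = 0.0528). FOXH1, a forkhead partner of the SMADs, was sparse, and its highest average was 13.4 CPM in 1 of the 2 LB PE libraries, the other being at 0.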
